A study of Mus musculus with 6 samples.

Results

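The miR-101 family was measured in extracellular vesicles (EVs) and in whole cells of primary cultured oligodendrocytes. Its members were taken by name as miR-101a-3p, miR-101a-5p and miR-101b-3p, which are 3 of the 1906 mature miRNAs counted, and the comparison is EVs against Cells. The family was chosen by the levels and differences of its members in EVs against Cells, so these are given as a description, without a test of their own. There were 3 EV libraries, from vesicles of primary cultured C57BL/6N mouse oligodendrocytes at 5 to 6 days in vitro, and 3 libraries of whole cells of the same kind at 6 days in vitro. Whether the cell libraries came from the cultures that gave the vesicles is not stated. Embryos of day 14 gave the cells of both groups, which were kept in Sato medium containing 1% horse serum. For the vesicles the serum was replaced by B27, a supplement for neural cultures, and the medium of the next 24 h was spun in steps of rising force, which also brings down particles other than vesicles. Neither group carries a genetic change, and the labels give no purity of the cultures. A library of medium alone was not analysed here.

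Mature miRNAs are short RNAs that guide Argonaute proteins to messenger RNAs, mostly through a short stretch near their 5′ end, the seed. A hairpin precursor yields a 5p and a 3p strand, and usually only 1 of them, the guide strand, is kept in quantity. miR-101 is a broadly expressed, deeply conserved miRNA with a 3p guide strand. In human cancer cells it is best known for repressing EZH2, the histone methyltransferase of the Polycomb repressive complex, an enzyme that is also active in dividing oligodendrocyte precursors. miR-101a and miR-101b are the products of separate genes.

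The mature sequences of the 3 members are shown because their near identity bears on every comparison between them. They come from RefSeq (GRCm38.p6), which held all 3, and the seed, bases 2 to 8, is in capitals.
miR-101a-3p: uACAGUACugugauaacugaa
miR-101b-3p: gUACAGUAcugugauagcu
miR-101a-5p: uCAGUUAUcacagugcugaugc
As annotated, miR-101b-3p starts 1 base further upstream than miR-101a-3p, so the seeds of the 2 guide strands share 6 of 7 bases, moved by 1 position, and each holds 1 base outside the other. Over the 18 bases that they share, 17 were identical and the difference was A16G (the base of miR-101a-3p, its position counted from 1 at the 5′ end of miR-101a-3p, and the base of miR-101b-3p). The counts do not record where a read began, so the seed of the molecules that were sequenced was not measured.

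The hairpins show the same closeness outside the annotated ends. Each is given with its 5p and 3p strands in capitals.
Mir101a: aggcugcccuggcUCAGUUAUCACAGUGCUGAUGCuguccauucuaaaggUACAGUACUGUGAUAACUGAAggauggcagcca
Mir101b: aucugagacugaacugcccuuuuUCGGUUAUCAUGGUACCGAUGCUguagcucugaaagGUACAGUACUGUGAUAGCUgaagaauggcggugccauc
Over the whole length of miR-101a-3p, the Mir101b hairpin matched at 20 of 21 bases, and A16G was again the difference. A 3p read that runs from the first base of miR-101a-3p to its last can therefore be placed by 1 internal base alone, as the pair below shows with that base in capitals.
miR-101a-3p: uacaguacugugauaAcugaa
Mir101b hairpin: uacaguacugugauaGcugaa
The 5p strands of the 2 hairpins differed at 5 of 22 bases. In the GENCODE annotation of GRCm38, Mir101a lies on the minus strand of chromosome 4 and overlaps an exon of the long non-coding RNA E130102H24Rik. Mir101b lies on the plus strand of chromosome 19 in an intron of Rcl1, a protein-coding gene. The reads were counted on the older build mm9, so positions are not given. How the authors' mapping treated reads that fit both guide strands is not given in the sources used here, and the split between miR-101a-3p and miR-101b-3p is uncertain to that extent.

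The libraries held 313766 to 689475 counts in EVs and 126910 to 202358 counts in Cells. Markers of several other cell types differed between the groups. The summed level of 4 red cell miRNAs was 3971 to 7905 CPM (counts per 1000000 counts of the library) in EVs, against 212 to 256 CPM in Cells, and miR-144-5p was at 0 in all 3 cell libraries. The hepatocyte miRNA miR-122-5p stood at 4194 to 8316 CPM in EVs, against 24.7 to 47.3 CPM in Cells. A pair of miRNAs of smooth muscle and mesenchyme summed to 2336 to 4570 CPM in the EV libraries, against 355 to 999 CPM in the cell libraries. The 3 neuronal miRNAs summed to 89590 to 118690 CPM in EVs, against 35923 to 50823 CPM in Cells. The 4 microglial and myeloid miRNAs held 309 to 610 CPM of EVs, against 552 to 1418 CPM of Cells, and these ranges overlapped. The 5 oligodendrocyte lineage miRNAs were detected in both groups, at 33557 to 36111 CPM in the EV libraries and 33961 to 43435 CPM in the cell libraries, a sum of unlike members, since 2 of them were called higher and 3 lower in EVs by edgeR (adjusted p below 0.05). The part of other cells or of the medium in the values of miR-101, which many tissues express, was not tested. In such pooled RNA, fewer cells of a type and less RNA per cell cannot be told apart.

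miR-101a-3p, the guide strand of Mir101a, was among the most abundant miRNAs of the vesicle pellet. Its level was 28146, 29959 and 23189 CPM in EVs replicates 1, 2 and 3, against 9360, 11189 and 9572 CPM in Cells replicates 1, 2 and 3. The lowest value in EVs exceeded the highest in Cells, and EVs replicate 3 was the lowest of its group. The miRNA ranked 7th, 5th and 10th among the 1906 miRNAs in the EV libraries and 23rd, 22nd and 22nd in the cell libraries. These values rested on 9400 to 15988 reads per EV library and 1420 to 1937 reads per cell library, so the 95% exact binomial interval of each share was narrow, for example 22835 to 23547 CPM in EVs replicate 3 and 10618 to 11783 CPM in Cells replicate 2. Such intervals, and those of reads pooled over a group further below, cover counting error only and not the spread between libraries.

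miR-101b-3p, the guide strand of Mir101b, was less abundant than miR-101a-3p in every library. It had 11993, 12672 and 11393 CPM in EVs replicates 1, 2 and 3, against 7190.0, 6887 and 6671 CPM in Cells replicates 1, 2 and 3. The groups did not overlap here either, and the replicates were closer together than those of miR-101a-3p: the coefficient of variation was 5.32% in EVs and 3.77% in Cells for miR-101b-3p, and 12.9% in EVs and 9.96% in Cells for miR-101a-3p. Its rank was 18 to 22 in the EV libraries and 25 to 32 in the cell libraries.

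**Figure D1:**
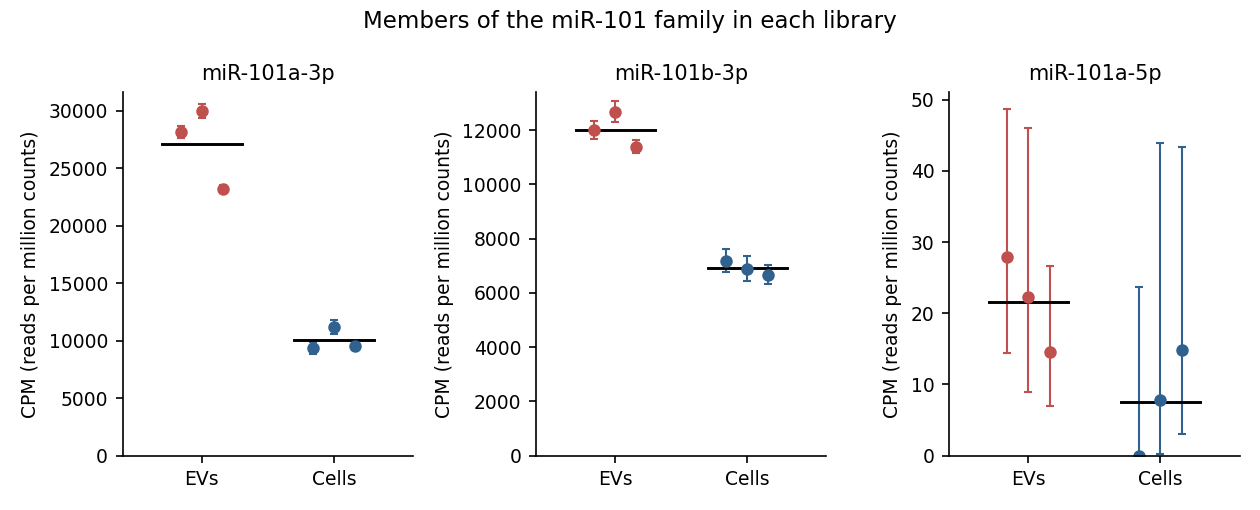
CPM of each member of the miR-101 family (vertical axes, linear and starting at 0, a different scale in each panel) in the 3 EV libraries (red) and the 3 cell libraries (blue), left to right in the order of their replicate numbers. Points are libraries with 95% exact binomial intervals of counting error and black lines are group means; the 3p members of EVs and Cells are apart, while the 5p member overlaps, at 14.5 to 27.8 CPM in EVs against 0 to 14.8 CPM in Cells.

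In order of level, miR-101a-3p in EVs came first (27098 ± 3505 CPM, mean ± SD, n = 3 in this and the following means), then miR-101b-3p in EVs (12019 ± 640 CPM), miR-101a-3p in Cells (10041 ± 1000 CPM) and miR-101b-3p in Cells (6916 ± 261 CPM). CPM compares shares of reads, and efficiencies of adapter ligation differ between miRNAs, so the order between the 2 miRNAs is one of reads and not of molecules. The miRNA just above miR-101a-3p was miR-30e-5p in both groups, at 27129 ± 1000 CPM in EVs against 10310 ± 276 CPM in Cells, which differs from miR-101a-3p by less than the SD between replicates. Just below it were let-7b-5p in EVs (26277 ± 6230 CPM) and miR-99b-5p in Cells (9980 ± 954 CPM), likewise within the SD. miR-101b-3p stood between miR-219a-2-3p (12816 ± 1457 CPM) and miR-30c-5p (11115 ± 607 CPM) in EVs, and between miR-16-5p (7839 ± 2914 CPM) and let-7d-5p (6486 ± 395 CPM) in Cells. In each group the gap to the neighbour above was smaller than the SD of that neighbour, and the gap to the one below was wider than either SD.

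Relative to all miRNAs, the 2 guide strands differed between EVs and Cells by unequal amounts. With trimmed mean of M-values (TMM) scaling in edgeR, the log2 fold change of EVs over Cells was 0.98 (SE 0.18) for miR-101a-3p and 0.33 (SE 0.18) for miR-101b-3p. Among the 336 miRNAs that passed the filter on low counts, miR-101a-3p ranked 66th and miR-101b-3p 140th from the top by fold change. Of the 3 members, 2 passed that filter and 1 of these, miR-101a-3p, was called at an adjusted p below 0.05 by edgeR's quasi-likelihood test with Benjamini-Hochberg adjustment, where 57.4% of all tested miRNAs were called in either direction and 28.6% were called higher in EVs. The CPM of EVs lay wholly above that of Cells for both guide strands, as it did for 47.3% of tested miRNAs, and groups did not overlap in either direction for 67.6%. Since the comparison chose the family, nothing further is read from these counts.

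Scaling changed the size of both differences. Without TMM, on library size only, the log2 fold changes were 1.43 (SE 0.16) for miR-101a-3p and 0.80 (SE 0.16) for miR-101b-3p, and miR-101b-3p was then called. The median of all tested miRNAs was 0.54 on this scale and 0.06 with TMM. Above the median of all tested miRNAs, miR-101a-3p stood 0.92 higher with TMM and 0.90 higher with library size only, and miR-101b-3p 0.27 and 0.26 higher. Among left-out libraries, EVs replicate 2 moved miR-101b-3p the most. Without it, the log2 fold change was 0.14 (SE 0.16) for miR-101b-3p and 0.74 (SE 0.17) for miR-101a-3p. The shift was not particular to the family. In the same fit miR-30e-5p went from 0.93 to 0.77 and miR-26a-5p from -1.23 to -1.40, and the median of all tested miRNAs was 0.0019. The direction was towards EVs under all 13 alternatives run for each guide strand.

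**Figure D2:**
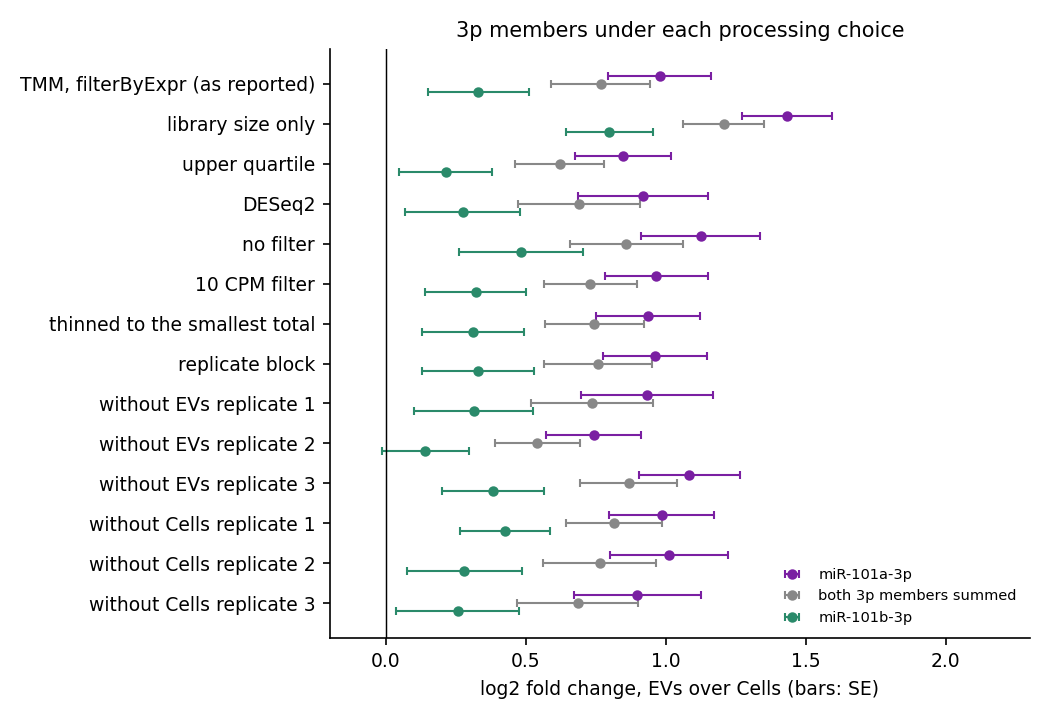
Log2 fold change of EVs over Cells (horizontal axis, bars are SEs) of miR-101a-3p (purple), the sum of both 3p members (grey) and miR-101b-3p (green) under each processing choice (vertical axis). The values of miR-101a-3p run from 0.74 to 1.43 and those of miR-101b-3p from 0.14 to 0.80, with miR-101a-3p further right than miR-101b-3p in each row.

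The ratio of the 2 guide strands within a library does not depend on scaling, and it was higher in EVs. There were 2.35, 2.36 and 2.04 reads of miR-101a-3p for each read of miR-101b-3p in EVs replicates 1, 2 and 3, against 1.30, 1.62 and 1.43 in Cells replicates 1, 2 and 3. miR-101a-3p was the larger of the 2 in all 6 libraries, and the groups did not overlap. As a share of the reads of both, miR-101a-3p held 70.1%, 70.3% and 67.1% in EVs and 56.6%, 61.9% and 58.9% in Cells, in the same order of replicates. The nearest libraries of the 2 groups were EVs replicate 3, with a 95% exact binomial interval of 66.5% to 67.7%, and Cells replicate 2, with 59.9% to 63.9%, so their counting errors did not meet. The mean log2 ratio was 1.17 ± 0.12 in EVs and 0.53 ± 0.16 in Cells (SD), a difference of 0.63 (SE 0.12). It lay between 0.56 and 0.72 when any single library was left out.

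**Figure D3:**
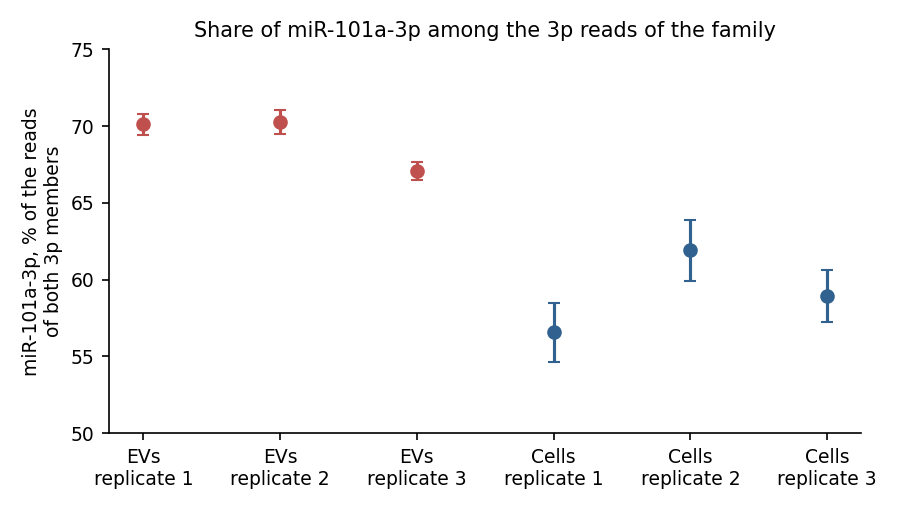
Share of miR-101a-3p among the reads of miR-101a-3p and miR-101b-3p (vertical axis in percent, drawn from 50 to 75) in each library (horizontal axis), with 95% exact binomial intervals of counting error. The EV libraries (red) lie at 67.1% to 70.3% and the cell libraries (blue) at 56.6% to 61.9%.

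Of 25 pairs whose names differ by the letters a and b and whose same arm was tested in both, a comparison chosen after the values were seen, the miR-101 pair had the 10th largest difference in log2 fold change, at 0.65, and the median absolute difference was 0.37. The reads of such pairs can be exchanged to different degrees, which the counts do not show.

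Summing the reads of both guide strands removes the question of how counted reads were split between the 2. Reads that the authors' mapping dropped or counted for both, if any, would still alter the sum. The sum was 40139, 42631 and 34581 CPM in EVs replicates 1, 2 and 3, against 16551, 18076 and 16244 CPM in Cells replicates 1, 2 and 3. The guide strands of the family averaged 39117 ± 4121 CPM in EVs, against 16957 ± 981 CPM in Cells. Fitted as 1 miRNA in the same model, the sum had a log2 fold change of 0.77 (SE 0.18), between the values of its parts.

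miR-101a-5p, the passenger strand of Mir101a, was close to the limit of detection. It had 12, 7 and 10 reads in EVs replicates 1, 2 and 3, against 0, 1 and 3 reads in Cells replicates 1, 2 and 3, or 27.8, 22.3 and 14.5 CPM against 0, 7.88 and 14.8 CPM. EVs replicate 3, at 14.5 CPM, was below Cells replicate 3, at 14.8 CPM, so the groups overlapped and cannot be separated at this depth. The count of 0 in Cells replicate 1 allows up to 19.2 CPM when 3 reads are allowed, or 23.6 CPM by the 95% exact binomial interval. With the reads of each group pooled, 29 in EVs and 4 in Cells, the share of counts was 2.45 times as high in EVs, with a 95% exact interval of 0.862 to 9.61. The log2 of this ratio was 1.30, but 2.52 without Cells replicate 3, which held 3 of the 4 reads, and 2.00 after thinning to equal depth. Without Cells replicate 1 it was lower, at 0.735. miR-101a-5p did not pass the filter on low counts, and without a filter its log2 fold change was 1.00 (SE 0.79).

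The strand balance of the hairpin was extreme in both groups. The 3p strand made up 99.90%, 99.93% and 99.94% of the Mir101a reads in EVs, and 100%, 99.93% and 99.85% in Cells, where the lower bounds of the exact intervals were 99.55% to 99.75%. On the scale of log2((3p + 0.5)/(5p + 0.5)), the means were 10.3 ± 0.33 in EVs and 10.2 ± 1.23 in Cells (SD), a difference of 0.09 (SE 0.73) that took either sign when single libraries were left out (-0.44 to 0.76). Mir101b was as one-sided: its 5p strand, miR-101b-5p, had 0, 1 and 5 reads in EVs and 0 in each cell library, against 874 to 7855 reads of miR-101b-3p. For comparison, 165 hairpins had strands of the same name apart from 5p and 3p and at least 10 reads over both strands in every library. Strands with names that differ otherwise, such as miR-129-5p and miR-129-2-3p, were left out. Of these 165 hairpins, miR-101b had the highest and miR-101a the second highest mean log2 ratio of 3p to 5p over the 2 groups, with the caution that such ratios are capped by depth. The median difference between EVs and Cells over these hairpins was 0.46, with quartiles of -0.52 and 1.42.

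**Figure D4:**
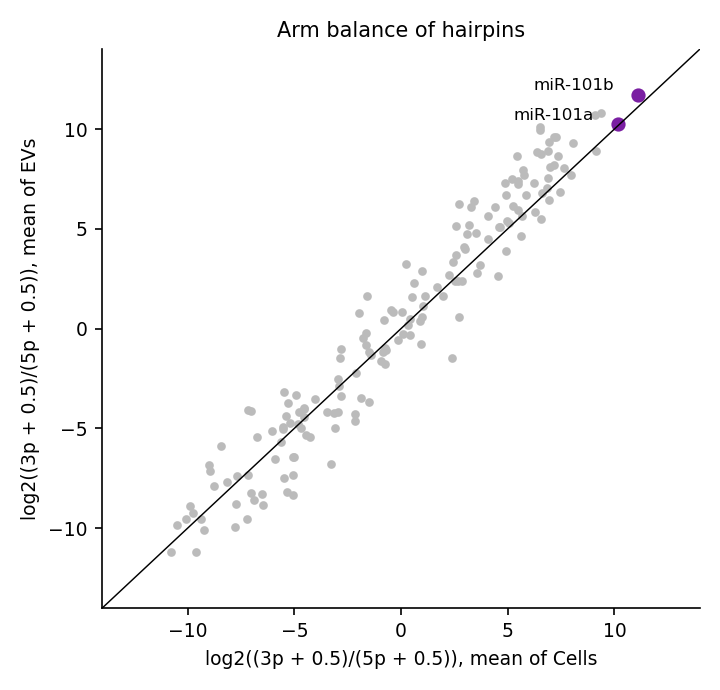
Mean log2 ratio of 3p to 5p reads, with 0.5 added to each, of 165 hairpins in EVs (vertical axis) and in Cells (horizontal axis). The diagonal marks equal ratios; miR-101a, at 10.3 in EVs and 10.2 in Cells, and miR-101b, at 11.7 in EVs and 11.1 in Cells, lie in the corner of hairpins that yield almost only 3p reads.

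Relatives of the guide strands by sequence were rare. The mature strands below, again with bases 2 to 8 in capitals and from RefSeq, are shown because each shares letters with a guide strand of the family at or near its 5′ end.
miR-101c: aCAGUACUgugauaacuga
miR-144-3p: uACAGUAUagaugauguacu
miR-582-5p: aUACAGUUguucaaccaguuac
miR-101c, annotated at another locus, is contained letter for letter in miR-101a-3p, with 19 of 19 bases identical, so its reads cannot be told apart from shortened copies of miR-101a-3p. It had 41.8, 70.1 and 50.8 CPM in EVs, against 25.6, 7.88 and 34.6 CPM in Cells. The log2 fold change of EVs over Cells was 0.67 (SE 0.53, not called), and in each library the level was far below the SD of miR-101a-3p.

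miR-144-3p, a miRNA of red blood cells, shares its first 7 bases with miR-101a-3p. It had 44, 17 and 18 reads in EVs replicates 1, 2 and 3, against 0, 1 and 0 reads in Cells replicates 1, 2 and 3. The pooled share was 26.7 times as high in EVs, with an exact interval of 4.66 to 1069 that shows how little 1 read in Cells can fix. Its partner strand miR-144-5p had 59 reads in EVs and 0 in Cells, a share at least 6.66-fold higher in EVs when 3 reads are allowed over the cell group. Levels of miR-144-3p, 26.1 to 102 CPM in EVs, were far below those of the miR-101 guide strands. miR-582-5p, which shares bases 2 to 7 with miR-101b-3p as annotated, had 11.6 to 15.9 CPM in EVs, against 12.8 to 19.8 CPM in Cells, on at most 8 reads a library.

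In base composition miR-101a-3p was poor in G and C, at 33.3%, against 42.1% for miR-101b-3p, 45.5% for miR-101a-5p and a median of 45.5% over the 297 tested miRNAs with a mature sequence in RefSeq. The short motifs GGAG and CCCU, which were reported in miRNAs sorted into vesicles of human T cells, were searched on the miRNA strand alone. Neither was present in any of the 3 members, while GGAG was in 8.75% and CCCU in 9.43% of the 297 sequences. The absence of these letters says nothing on any protein that may bind them.

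miR-101 is one of several miRNAs reported, mostly in human cells, to repress EZH2. Of 12 others listed, 10 were tested: 3 were higher in EVs, where 28.6% of all tested miRNAs were called, and 6 were lower, where 28.9% were called. The median log2 fold change of the list was -0.88, beside 0.06 over all tested miRNAs, or -0.41 beside 0.54 with library size only. On that scale 4 of the 10 were higher and 5 lower, where 148 of all 336 tested miRNAs were called higher and 60 lower. Without a filter, when all 12 entered, the median was -0.04, beside 0.34 over all tested. Of the 6 that were lower, let-7a-5p, let-7b-5p, let-7c-5p and miR-98-5p share a seed, and miR-26a-5p and miR-26b-5p are relatives. The 6 are therefore not 6 independent members.

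The 3 that were higher were miR-124-3p, a neuronal miRNA, miR-138-5p, a miRNA of neurons and oligodendrocytes, and miR-32-5p. miR-124-3p had 27833, 26915 and 20115 CPM in EVs, against 6063, 13009 and 9286 CPM in Cells. Its log2 fold change was 0.97 (SE 0.25), beside 0.98 for miR-101a-3p. Its call was lost without EVs replicate 1 (0.85, SE 0.33) or EVs replicate 2 (0.74, SE 0.31). miR-138-5p had 11339, 9188 and 10895 CPM in EVs, against 3752, 4680.5 and 5312 CPM in Cells, and EVs over Cells was 0.73 on the log2 scale (SE 0.17). miR-32-5p had 47, 23 and 52 reads in EVs, against 2, 1 and 2 reads in Cells. It passed the filter on low counts only through EVs, so a call could only be towards EVs, and without it 2 of the other 9 members tested were higher. Its pooled share was 8.26 times as high in EVs, with an exact interval of 3.44 to 25.9.

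The 6 that were lower included miR-26a-5p, at 20729 ± 2235 CPM in EVs against 35403 ± 4374 CPM in Cells, or -1.23 as a log2 fold change (SE 0.15). let-7a-5p (-2.27, SE 0.19) had the largest decrease of the list, and miR-98-5p followed at -1.79 (SE 0.21). let-7c-5p (-1.29, SE 0.17) and let-7b-5p (-0.97, SE 0.20) were lower by less. miR-26b-5p, the relative of miR-26a-5p, had a log2 fold change of -0.80 (SE 0.21) with overlapping CPM in the 2 groups, and was not called with library size only (-0.34). miR-25-3p was not called (0.42, SE 0.17), although it was with library size only, with DESeq2, after thinning to equal depth and without Cells replicate 1. miR-214-3p, with 29 reads in EVs and 1 in Cells, and miR-217-5p, with 4 and 0, were too rare to be tested.

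**Figure D5:**
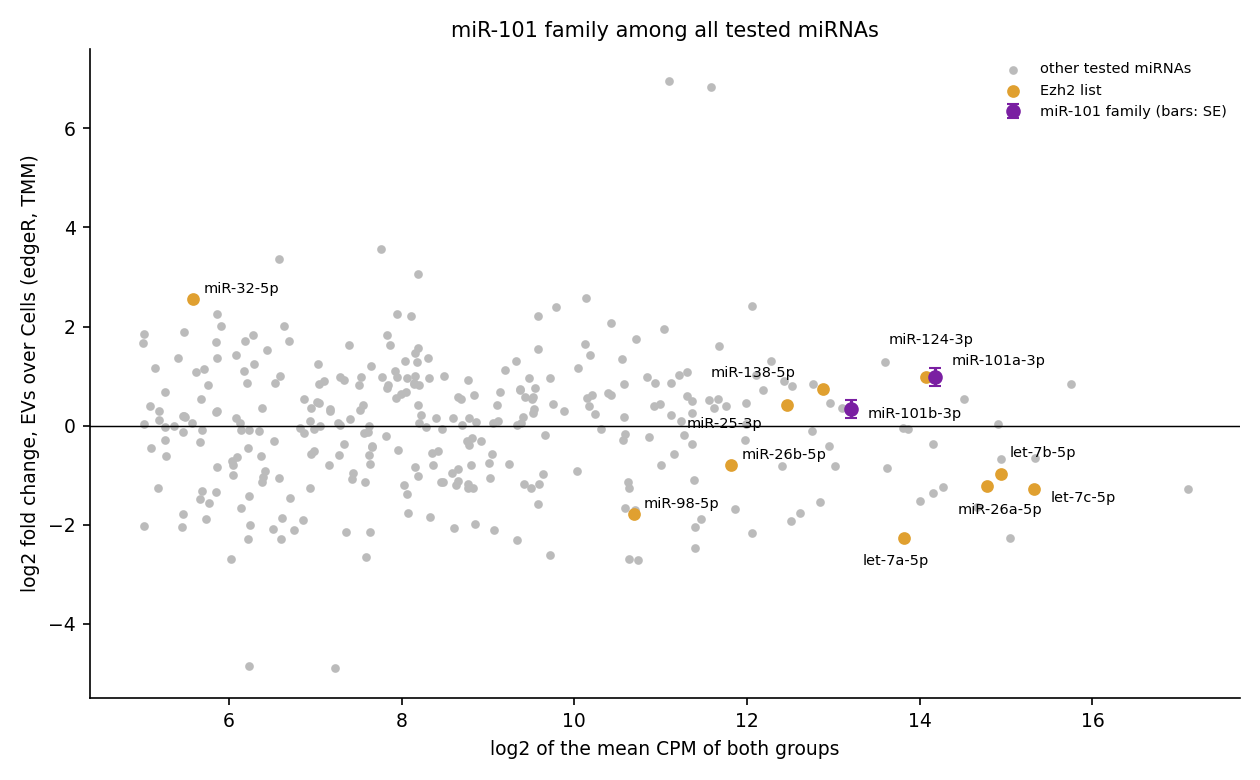
Log2 fold change of EVs over Cells (vertical axis, TMM scaling) against the log2 of the mean CPM of both groups (horizontal axis) for the 336 tested miRNAs. The miR-101 guide strands (purple, bars are SEs) lie at 0.98 and 0.33, and the 10 tested members of the Ezh2 list (orange) fall on both sides of 0, from -2.27 to 2.56.

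The miRNAs whose pattern over the 6 libraries was most like that of miR-101a-3p were sought by the root mean square difference of log2 CPM after centring each miRNA on its own mean, among the 255 others tested that averaged 100 CPM or more. The closest was miR-132-3p (difference 0.08), an activity-regulated neuronal miRNA, at 9885 ± 1198 CPM in EVs against 4014 ± 380 CPM in Cells. miR-434-3p (0.10), miR-370-3p (0.12), miR-30e-5p (0.12) and miR-181c-5p (0.14) followed, with log2 fold changes of 0.81 to 0.98. miR-101b-3p came only 52nd by this measure (0.34). The 5 closest to miR-101b-3p were miR-181d-5p (0.11), miR-149-5p (0.11), miR-25-3p (0.13), miR-324-5p (0.15) and miR-129-5p (0.15), with log2 fold changes of 0.15 to 0.42. None of these was called in the main fit with TMM. Each of the 5 was called with library size only, as was miR-101b-3p, for likeness to which they were chosen. With TMM, miR-25-3p and miR-129-5p were also called without Cells replicate 1, and miR-25-3p after thinning to equal depth. Of all 336 tested miRNAs, 96 were called higher and 97 lower with TMM, against 148 and 60 with library size only. Neither set of 5 held a miRNA of the other. All of these values share the same 6 libraries and mainly follow the difference between EVs and Cells.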

How the data were processed

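Small RNA libraries of 3 EV and 3 cell samples were compared. For each library the authors deposited a table of counts of reads per mature miRNA, without scaling. The submitters' processing notes name Bowtie 0.12.8, featureCounts 1.4.6-p4, bcl2fastq 1.8.4 and cutadapt 1.7.1, and build NCBIM37 (mm9). Settings and the handling of reads with several matches were not given in the sources used here. Both adapters carried 4 random bases, per the labels' protocols, and whether these served to collapse PCR duplicates is not stated.

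From the counts, CPM was computed on library totals. EVs over Cells was fitted with edgeR 4.0.16 in R 4.3.3 (glmQLFit and glmQLFTest, TMM, filterByExpr at a minimum count of 10, group as the only term, Benjamini-Hochberg over 336 miRNAs, called below 0.05, biological coefficient of variation 23.8%), a script tested on simulated data. SEs were derived from the coefficient and F statistic. DESeq2 1.42.0, other scalings and filters, thinning to the smallest total, a replicate block and leaving out each library were alternatives. Intervals used scipy 1.17.1.

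The labels do not say that replicates were separate cultures, so the p-values rest on a spread that may be technical. Deviations from the group means were correlated between EV and cell libraries of the same number (0.115, 0.103 and 0.254 over 336 miRNAs, log2 CPM with a prior count of 2), and the other pairs of libraries lay between -0.14 and 0.0203. The same-numbered correlations were the higher ones but weak, so the numbers may pair the samples, which the labels do not state. The main fit and the SEs of the ratios treated the groups as unpaired, and the replicate block was an alternative.

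The members and all lists were chosen with earlier results of these data known. Named miRNAs were the members, their seed relatives and other hairpin products, the Ezh2 list, the 5 closest patterns to each guide strand, and the neighbours by level. RefSeq held mature sequences for 1622 of 1906 miRNAs.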

Additional observations from a re-analysis of the deposited data

How the results depend on the processing

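As a description, since these values chose the family, the log2 fold change of miR-101a-3p was 0.74 to 1.43 across 13 alternatives (0.74 to 1.08 when a library was left out), and that of both 3p members summed 0.54 to 1.21 (0.54 to 0.87). miR-101b-3p had 0.14 to 0.48, except with library size only (0.80). Left-out libraries gave 0.14 to 0.43 for it. With the replicate number as a block, the values were 0.96, 0.76 and 0.33 in that order, on the same side of the threshold as without it. Library size only gave 148 miRNAs higher and 60 lower in EVs, in place of 96 and 97. The other alternatives gave 66 to 124 higher and 80 to 124 lower. The ratio of miR-101a-3p to miR-101b-3p moved by less than the SD between replicates in all 9 alternatives run for it (0.56 to 0.72). That of the strands of miR-101a (-0.44 to 0.76) took either sign and moved by more than the SD in EVs, though by less than that in Cells. For both ratios the replicate block among these alternatives gives the same difference by arithmetic, so it could not move them. miR-101a-5p, too rare for the fit with its filter, had a log2 ratio of pooled shares of 1.30, or 0.735 to 2.52 with a library left out. Its log2 fold change was 0.85 with the 10 CPM filter. The Ezh2 list, rerun by choice after the data were seen, had 2 to 4 members higher and 5 or 6 lower. Its median was -0.41 with library size only and -0.04 without a filter, where the 2 rarest members entered. The cause of the shift with library size only was not tested. The shallower cell libraries, at 4.94 to 7.88 CPM per read, limit what can be said of the 5p strands.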
